A study of Mus musculus with 4 samples.

Results

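The phosphocreatine and adenylate buffering genes were taken as 9 listed genes: Ckm, Ckmt2, Ckb, Slc6a8, Ampd1, Ampd3, Ak1, Ak3 and Adssl1. Their rows in the table of alternative start sites (ASSs) were found by symbol and summed per gene. Of the 9 genes, 7 had at least 1 ASS, with 53 ASSs together, of 9838 genes and 42207 ASSs in the whole table. Ckb, the brain-type creatine kinase, and Ampd3, the erythrocyte-type AMP deaminase, had no ASS. The table held no ASS with under 10 reads over the 4 libraries, so weaker signals of these genes would not be listed.

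The libraries came from whole gastrocnemius muscle of male AMPKα2-/- C57BL/6 mice (KO) about 8 weeks old and of wild-type controls (WT), with 2 animals and 2 libraries per group. No Cre or promoter that would restrict the knockout to muscle was described. Prkaa2 encodes AMPKα2, 1 of the catalytic subunits of AMPK, the kinase that responds to AMP, and the knockout abolishes a region coding for part of the catalytic domain. Each read of whole transcriptome start site sequencing (WTSS-seq) marked the 5′ end of a captured RNA molecule, whether a true start or the end of a fragment.

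A contracting muscle fiber spends ATP faster than mitochondria can replace it. Creatine kinases bridge the gap by moving phosphate from phosphocreatine to ADP. Adenylate kinase joins pairs of ADP molecules into ATP and AMP, and AMP deaminase then removes AMP as IMP. Adenylosuccinate synthetase begins the return of IMP to AMP, which completes the purine nucleotide cycle. AMP is also the signal that AMPK senses, which is why these genes are of interest where a catalytic subunit of AMPK is missing.

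Library totals ran from 1300069 to 2900279 reads, with KO the deeper group in both of its libraries. Ribosomal and mitochondrial transcripts accounted for 36.7% to 41.8% of the reads. Prkaa2 itself had normalized counts of 149 and 183 in KO against 153 and 186 in WT, at a DESeq2 adjusted p of 0.994. Transcripts can still start outside a deleted part of a gene, and the position of the deletion was not used here, so that this sum does not check the labels. All 13 fast fiber genes of a list of markers had ASSs, with summed normalized counts of 36760 and 48468 in KO against 34527 and 56657 in WT. Of the 7 blood cell genes listed, 5 had no ASS. Between replicates, chi-square divided by its degrees of freedom was 10.5 in KO and 6.46 in WT, far above sampling noise. Where replicates vary beyond sampling this ratio grows with depth, so that it does not compare the spread of KO with that of WT. With 2 libraries against 2, an exact permutation test of a single value cannot give a two-sided p below 0.333.

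Sequences of the RefSeq promoter table (GRCm38.p6) show which members had an ASS at an annotated start. The windows ran from 250 bases before to 50 bases after a start. The table held 12 windows for 7 of the 9 genes, and 2 windows, of Adssl1 and Ak1, held an ASS of their gene on its strand. Among all genes with a window and an ASS, 11.8% had an ASS inside a window, and such ASSs took 9.49% of their reads. For the 5 members with a window and an ASS, they took 2.87% of the reads, and 22.9% without Ckm, whose reads make up most of the sum. Adssl1 is shown because its main ASS covered its start, and Ckm because its reads lay elsewhere. In Adssl1 (chr12:112619797-112620076, plus strand) the capitals mark the bases of the main ASS that fall in the stretch. In Ckm (chr7:19410844-19411123, plus strand) the capitals mark the match to a searched motif.
Adssl1: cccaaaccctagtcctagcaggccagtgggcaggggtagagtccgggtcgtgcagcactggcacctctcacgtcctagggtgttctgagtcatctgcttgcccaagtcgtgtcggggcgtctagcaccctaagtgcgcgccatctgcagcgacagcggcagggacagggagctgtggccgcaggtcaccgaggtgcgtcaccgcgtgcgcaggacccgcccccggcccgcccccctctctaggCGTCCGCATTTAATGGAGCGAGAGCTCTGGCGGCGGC
Ckm: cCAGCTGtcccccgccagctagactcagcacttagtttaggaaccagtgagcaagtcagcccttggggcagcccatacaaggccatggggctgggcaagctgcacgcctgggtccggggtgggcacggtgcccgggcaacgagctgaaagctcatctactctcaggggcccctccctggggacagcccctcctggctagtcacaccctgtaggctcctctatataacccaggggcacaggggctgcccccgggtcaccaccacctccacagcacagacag

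The third stretch lies at an alternative start of Ak1, 3679 bp after the first start of the gene (chr2:32625457-32625486, plus strand). The capitals mark a match to the MEF2 motif, the binding sequence of a family of muscle transcription factors, and then the 3 bases of the Ak1 ASS.
Ak1: TTATAAATAGtcgcctttgcaggcGGCtga
The ASS began 44 bp after the annotated alternative start. The MEF2 match began 24 bases before the ASS, and a TATA box match inside it began 23 bases before. Motifs were searched on both strands. A TATA box of the letters TATAAA was in 2 of the 12 member windows, in Ak1 and Ckb, beside 13.6% of all 32851 windows. The MEF2 motif was in the same 2 windows, beside 3.19% of all.

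The GC box GGGCGG was in 3 windows, of Adssl1, Ckmt2 and Ak3, beside 35.7% of all. The E-box pattern CANNTG, the general sequence bound by MyoD and related factors, was in 10 windows, beside 72.3% of all, and in Ckm it was the 1 match, at bases -249 to -244 from the start.

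The E-box with the letters CACGTG, which counts for the general pattern as well, was in 1 window, of Ampd3, beside 7.15% of all.

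None of the tested members passed the threshold between KO and WT in its summed count. DESeq2 tested 5 members, Ckm, Ckmt2, Ampd1, Ak1 and Adssl1, and called 0, beside 2.67% of all 4688 genes tested at an adjusted p under 0.1. At an unadjusted p under 0.05 the count was also 0, beside 9.77% of all. The quasi-likelihood test of edgeR called 0 of the same 5 members at an adjusted p under 0.1, beside 0.883% of all, and gave 0 with an unadjusted p under 0.05. Of the 5 members, 1 was higher in KO by its log2 fold change, and their median log2 fold change was -0.14, beside 0.010 over all genes tested. KO and WT libraries overlapped in all 5, while both KO libraries lay above both WT libraries in 22.0% of all genes tested and below them in 19.4%. In whole tissue, fewer cells of a type and less RNA per cell cannot be told apart.

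**Figure D1:**
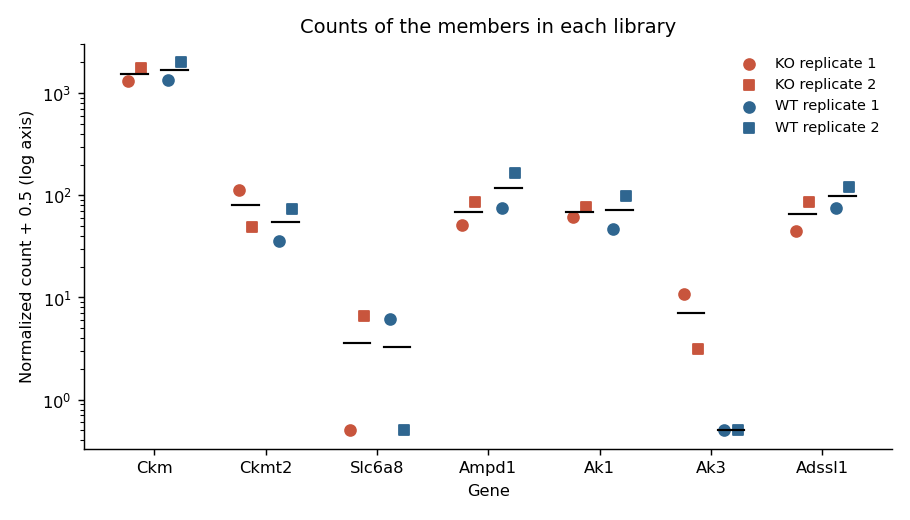
Normalized count plus 0.5 (log axis) of the 7 members with an ASS in each library; circles are replicate 1, squares replicate 2, red is KO, blue is WT, and black bars are group means. Ckm was at 1307 to 2001 in every library, and the KO and WT points of Ckm, Ckmt2, Ampd1, Ak1 and Adssl1 overlap.

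Ckm, the cytosolic creatine kinase of muscle, had 6715 reads, the most of any member. Its normalized counts were 1307 and 1750 in KO against 1355 and 2001 in WT. The lowest and the second highest value were both in KO, so that the groups overlapped. KO against WT gave a log2 fold change of -0.14 (SE 0.42), with a 95% interval of -0.97 to 0.70 and a DESeq2 adjusted p of 0.992. The interval thus includes changes of either direction. Ckmt2, the creatine kinase of sarcomeric mitochondria, had 111 and 48.9 in KO against 35.1 and 73.5 in WT. Its log2 fold change was 0.56 (SE 0.71), with a 95% interval of -0.84 to 1.96 and a DESeq2 adjusted p of 0.947. KO replicate 1 alone carried the high value, and without it the log2 fold change was -0.14.

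Slc6a8, the creatine transporter of the plasma membrane, had a single intronic ASS (chromosome X, 73678150 to 73678157) with 11 reads. The KO libraries held 0 and 7 reads and the WT libraries 4 and 0, so that each group had 1 library without a read, and the gene was not tested. Levels of different members were not compared, since no transcript lengths were used here.

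Ampd1, the AMP deaminase of skeletal muscle, had normalized counts of 51.3 and 84.8 in KO against 74.3 and 163 in WT. KO replicate 2 lay above WT replicate 1. KO against WT gave a log2 fold change of -0.81 (SE 0.64), with a 95% interval of -2.06 to 0.44 and a DESeq2 adjusted p of 0.852. Adssl1, the muscle adenylosuccinate synthetase, had 44.6 and 86.5 in KO against 74.3 and 120 in WT. Its log2 fold change was -0.57 (SE 0.64), with a 95% interval of -1.83 to 0.69 and a DESeq2 adjusted p of 0.929. In both genes, as in Ckm, the lowest value was in KO replicate 1 and the highest in WT replicate 2. Without WT replicate 2 the log2 fold changes were -0.16 for Ampd1 and -0.22 for Adssl1.

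Ak1, the cytosolic adenylate kinase of muscle, had normalized counts of 61.1 and 76.0 in KO against 46.3 and 97.1 in WT. The WT libraries lay on either side of both KO libraries. KO against WT gave a log2 fold change of -0.07 (SE 0.66), with a 95% interval of -1.37 to 1.23 and a DESeq2 adjusted p of 0.992. Ak3, a GTP:AMP phosphotransferase of the mitochondrial matrix, had 1 intronic ASS (chromosome 19, 29038506 to 29038513) with 17 and 3 reads in KO against 0 and 0 in WT. It was too low to be tested. In normalized counts, its mean in KO was at least 1.64-fold a floor of 3 reads per WT library. That excess came from KO replicate 1 alone. KO replicate 2 had 3 reads, and its normalized count lay below the floor of the WT libraries.

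The replicates of a group differed in the same order for most members. WT replicate 1 was lower than WT replicate 2 in 5 of 5 tested members, beside 49.3% of all genes tested. KO replicate 1 was lower than KO replicate 2 in 4 of 5, the exception being Ckmt2, beside 52.0% of all. The summed counts of the fast fiber markers given above had the same order in both groups, and so had those of the slow fiber markers given next. The part of fiber content in the members' counts was not tested. Slow fiber markers, of which 10 of 11 had ASSs and Myl2 had none, summed to 1240 and 1721 in KO against 565 and 1353 in WT, and 0 of the 8 tested were called. Fibroblast markers, with 12 of 13 detected and Postn at none, summed to 3756 and 3942 in KO against 5710 and 5476 in WT, and 1 of the 11 tested was called, as lower in KO. Adipocyte markers, with 7 of 9 detected, summed to 6474 and 3674 in KO against 6497 and 4309 in WT. Endothelial markers, with 6 of 6 detected, summed to 297 and 324 in KO against 266 and 254 in WT. Smooth muscle markers, with 4 of 6 detected, summed to 67.2 and 168 in KO against 98.2 and 85.9 in WT. Blood markers, with Alas2 and Hba-a1 detected, summed to 28.1 and 24.5 in KO against 21.0 and 16.2 in WT. By log2 fold change, 7 of 8 tested slow fiber markers, 2 of 13 fast fiber markers and 0 of 11 fibroblast markers were higher in KO. For adipocyte, endothelial, smooth muscle and blood markers the counts were 1 of 6, 2 of 4, 3 of 3 and 1 of 1. Over all genes tested the share was 50.5%.

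Over the 4 libraries, each value centered on its gene's mean on the log2 scale, the genes most like Ckm among 1398 with a mean normalized count of at least 100 were Baz1b, Dnaja2 and Pcmtd1. Their largest difference from Ckm in any library was 0.048, 0.050 and 0.050 on that scale. Those most like Ampd1 were Lnpep, Fbxo40 and Zfand6, with largest differences of 0.095, 0.21 and 0.21.

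**Figure D2:**
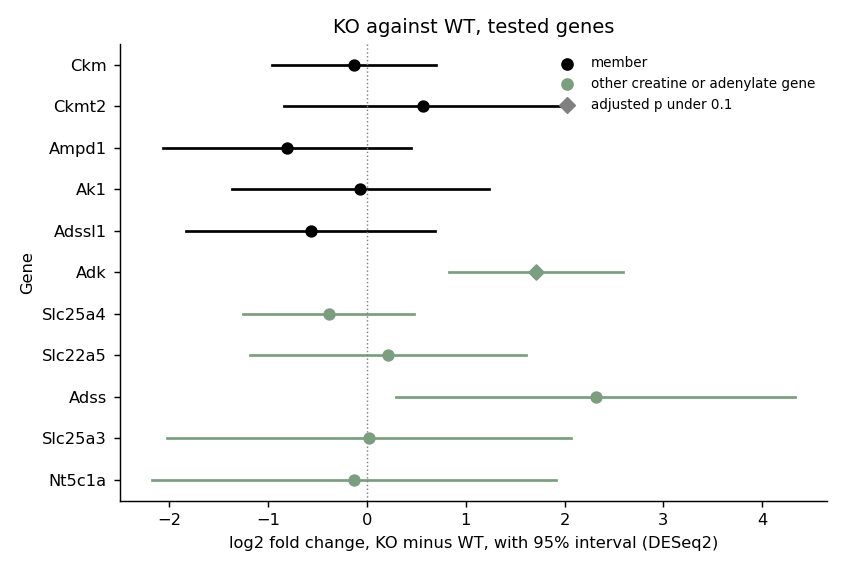
Log2 fold change of KO minus WT (x axis) with its 95% interval from DESeq2 for the 5 tested members (black) and the 6 tested genes of the other creatine and adenylate list (green); a diamond marks an adjusted p under 0.1. The interval of every member includes 0, and Adk is the gene marked as called.

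The other genes of creatine and adenylate metabolism were 34 listed genes, of which 17 had an ASS. The genes without one included Gatm and Gamt, the enzymes of creatine synthesis, and Ckmt1, the ubiquitous mitochondrial creatine kinase. DESeq2 tested 6 of the 34 and called 1, Adk, as higher in KO, beside 2.67% of all genes tested. The edgeR test called 0, beside 0.883% of all. The median log2 fold change of the 6 was 0.12, beside 0.010 over all genes tested. Adk, adenosine kinase, which returns adenosine to AMP, had normalized counts of 1059 and 726 in KO against 321 and 225 in WT. Its log2 fold change came to 1.71 (SE 0.45), at adjusted p-values of 0.0129 by DESeq2 and 0.179 by edgeR. The call was lost without KO replicate 1 (log2 fold change 1.42, DESeq2 adjusted p = 0.659), without KO replicate 2 (1.97, adjusted p = 0.117) and without WT replicate 2 (1.45, adjusted p = 0.299). Of the 17 ASSs of Adk, 16 were intronic. The remaining ASS (chromosome 14, 21448346 to 21448350), inside an exon, had 0 and 0 reads in KO against 2 and 8 in WT and was not tested. The main intronic ASS (21187576 to 21187606) held 64.7% of the Adk reads. That intronic ASS held 1243 and 534 reads in KO against 91 and 56 in WT, giving a log2 fold change of 2.76, adjusted p-values of 0.00248 by DESeq2 and 0.122 by edgeR. Its DESeq2 call was lost without KO replicate 1 (log2 fold change 2.32, adjusted p = 0.594) and without KO replicate 2 (3.10, adjusted p = 0.633).

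Slc25a4, the muscle exchanger of ADP and ATP in the inner mitochondrial membrane, had 390 and 471 in KO against 461 and 664 in WT, giving a log2 fold change of -0.39 (SE 0.44) and a DESeq2 adjusted p of 0.929. Slc22a5, the carnitine transporter, had 66.0 and 48.1 in KO against 33.7 and 64.8 in WT, at a DESeq2 adjusted p of 0.992. Adss, the non-muscle paralog of Adssl1, lies outside the naming rule and was picked after its values were seen. It had 44.6 and 28.0 in KO against 8.41 and 6.23 in WT, so that the groups did not overlap, and its DESeq2 adjusted p was 0.369. The paralogs thus had log2 fold changes of 2.32 (SE 1.03) for Adss and -0.57 (SE 0.64) for Adssl1, and neither was called. The difference between them was not tested.

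The 53 ASSs of the members, like those of all genes, lay mostly away from annotated starts. Of the 35 ASSs of members with a promoter window, 5.71% lay inside a window, beside 2.79% for all genes with a window. The members' reads fell mostly in 1 class. Sites that extend from an exon into an intron (class code e) took 82.4% ± 2.87 of the members' reads in KO against 83.5% ± 3.06 in WT (SD, n = 2). Over all sites with a gene outside ribosomal and mitochondrial RNA, class e took 7.05% ± 0.81 in KO against 8.60% ± 2.09 in WT. The high share came from Ckm, where class e took 94.9% ± 1.06 and 96.3% ± 1.12. Without Ckm, class e took 18.2% ± 3.07 of the members' reads in KO against 19.6% ± 0.91 in WT, and sites inside exons (class c) took 46.7% ± 13.0 and 51.2% ± 11.8. Intronic sites (class i) made up 32.1% of the members' ASSs and 52.1% of all.

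**Figure D3:**
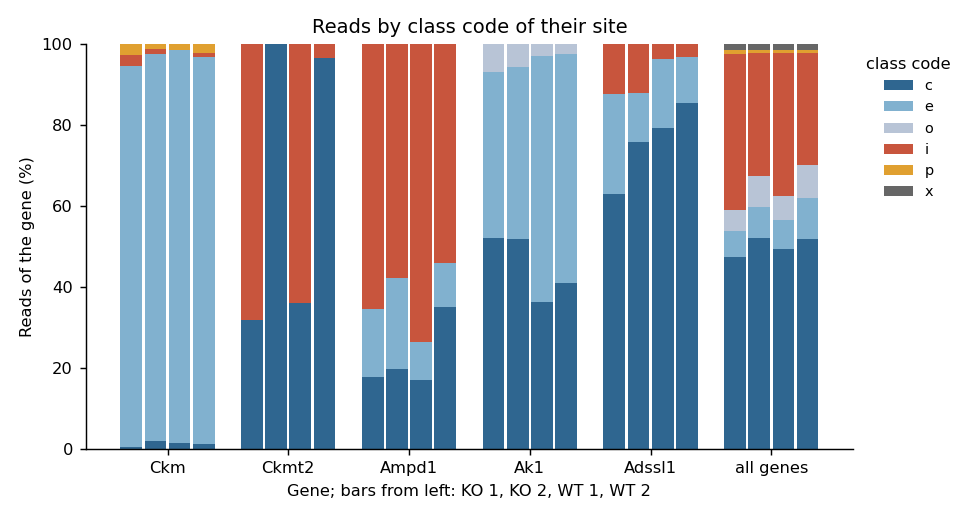
Percent of a gene's reads (y axis) in ASSs of each class code, with 4 bars per gene for KO replicates 1 and 2 and WT replicates 1 and 2: c, inside an exon; e, exon into intron; o, other overlap with an exon; i, intron; p, past the gene end; x, opposite strand of an exon. Class e fills over 94% of every Ckm bar, while the bars of Ckmt2 alternate between intronic and exonic reads within each group.

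The shares were steady between replicates in some members and not in others. In Ak1 the class e share was 41.0% and 42.5% in KO against 60.6% and 56.4% in WT, a single site (chromosome 2, 32633263 to 32633376) with 41 and 37 reads in KO against 20 and 44 in WT. It was the main ASS of Ak1, 11597 bp from the gene start. In Ckmt2 the intronic share was 68.1% and 0% in KO against 64.0% and 3.39% in WT. In Ampd1 intronic sites held 65.5% and 57.7% of the reads in KO against 73.6% and 54.2% in WT. These shares rest on 25 to 182 reads per gene and library.

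At the level of single ASSs, DESeq2 tested 18 of the 53 and called 0, beside 3.21% of all 11112 sites tested. At an unadjusted p under 0.05 it gave 0 of the 18, beside 9.63% of all. The edgeR test took in 19 and called 0, beside 0.712% of all, and gave 1 at an unadjusted p under 0.05. Both KO libraries lay above both WT libraries in 1 of the 18 tested ASSs, beside 23.0% of all, and below them in 3, beside 17.4%. The median log2 fold change of the 18 was -0.037, beside 0.097 over all tested sites. Of the 53 ASSs, 32 had under 30 reads over the 4 libraries, which limits what single sites can show at this depth.

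**Figure D4:**
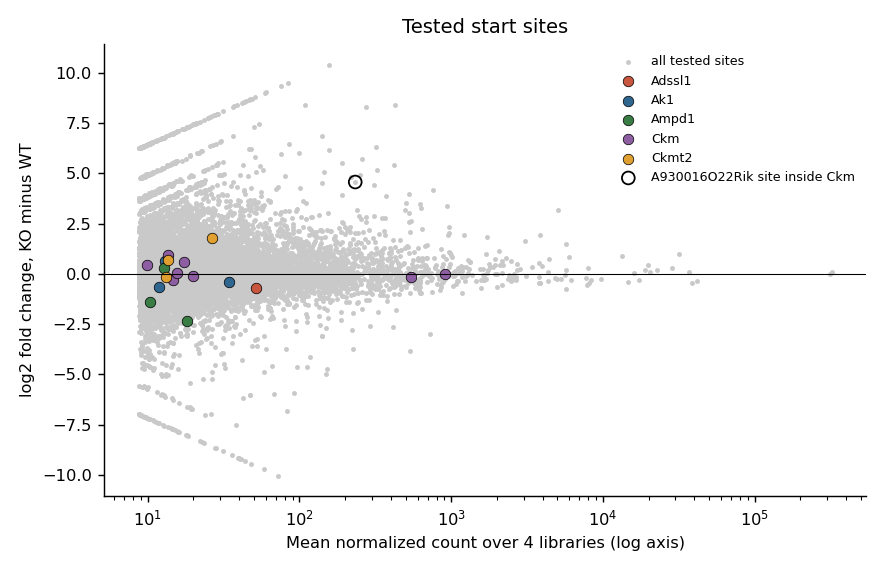
Log2 fold change of KO minus WT (y axis) against the mean normalized count over the 4 libraries (x axis, log) of all 11112 tested ASSs (grey) and the 18 tested ASSs of Adssl1, Ak1, Ampd1, Ckm and Ckmt2 (colored). The colored points lie inside the grey cloud, and the open circle at a log2 fold change of 4.57 is an ASS inside Ckm that the table gives to A930016O22Rik.

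Most Ckm reads came from a pair of wide ASSs, and neither was called. The first (chromosome 7, 19416695 to 19416802), 5612 bp from the gene start, had 790 and 602 reads in KO against 348 and 578 in WT, giving a log2 fold change of -0.14 (SE 0.57). The other (19421193 to 19421530), 338 bp wide and 202 bp before the gene end, had 1161 and 1245 reads in KO against 552 and 923 in WT, giving a log2 fold change of 0.016 (SE 0.57). Together they held 91.7% ± 0.71 of the Ckm reads in KO against 93.3% ± 0.17 in WT (SD, n = 2). No ASS lay at the start of Ckm. The one nearest to it (19412754 to 19412797), 1702 bp downstream and intronic, was also the tested Ckm site with the smallest p, and it had 34 and 16 reads in KO against 0 and 16 in WT, at a DESeq2 adjusted p of 1.00. A further 5 ASSs lay past the gene end, by 558 to 1133 bp. One of them (19422520 to 19422562), picked after its values were seen, had 0 and 0 reads in KO against 4 and 6 in WT and was not tested.

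Inside the span of Ckm (19411094 to 19421583) and on its strand, the table gave 2 further ASSs to A930016O22Rik, a long non-coding RNA gene (19417466 to 19421417), as lying on the strand opposite to its exons (class code x). They are the only 2 ASSs of that symbol, and it had none on its own strand. They were looked up after the values of Ckm were seen. The larger (19420506 to 19420527), 9432 bp from the Ckm start, had 636 and 553 reads in KO against 15 and 15 in WT. Its normalized counts were 447 ± 42.3 in KO against 18.8 ± 2.14 in WT (SD, n = 2), giving a log2 fold change of 4.57 (SE 0.66), adjusted p-values of 6.98e-09 by DESeq2 and 0.0319 by edgeR. Without any one library the log2 fold change was 4.41 to 4.70 and the DESeq2 adjusted p was at most 0.0359. The ASS took 22.0% ± 0.75 of the reads on the Ckm strand of this locus in KO against 1.21% ± 0.43 in WT. The smaller (19417436 to 19417611) had 50 and 22 reads in KO against 10 and 26 in WT, at a DESeq2 adjusted p of 1.00.

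**Figure D5:**
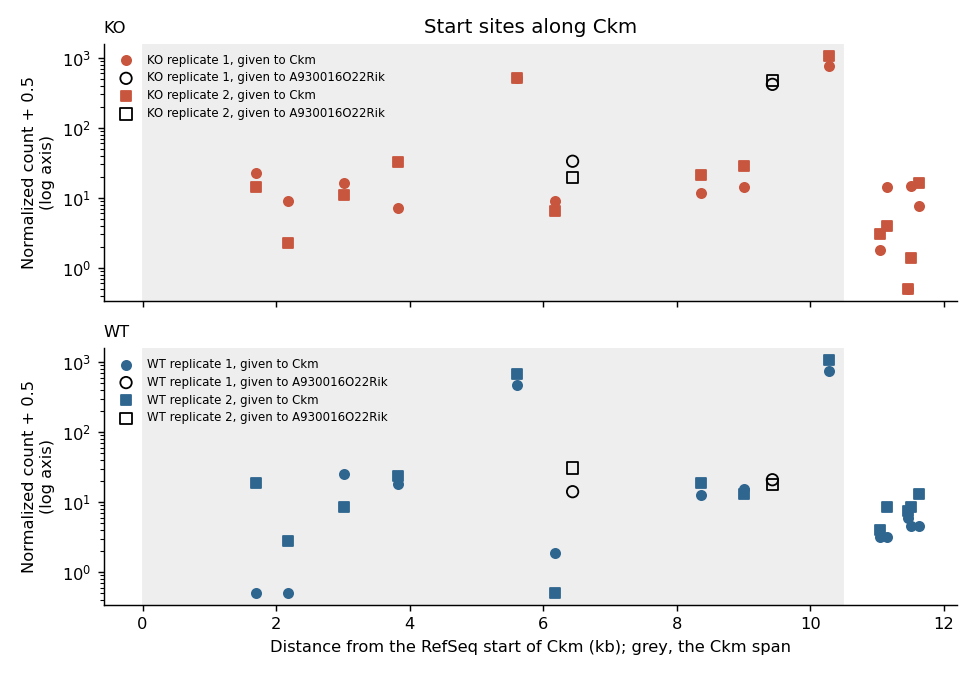
Normalized count plus 0.5 (log axis) of each ASS against its distance in kb from the RefSeq start of Ckm, in KO (top) and WT (bottom); filled symbols were given to Ckm and open ones to A930016O22Rik, circles are replicate 1, squares replicate 2, and the grey band is the Ckm span. The open symbols 9432 bp from the start are at 417 and 477 in KO against at 20.4 and 17.3 in WT, while the highest filled symbols are at like levels in both panels.

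Which transcript these reads came from was not tested, and their strand is known as far as the table gives it. Counted with Ckm, they raised its normalized counts to 1726 and 2253 in KO against 1390 and 2052 in WT, which turned the log2 fold change to 0.21 (SE 0.42), with a DESeq2 adjusted p of 0.983. The groups still overlapped, and Ckm was not called. By the table's own assignment, no tested member was called for a changed use of start sites: diffSpliceDGE of edgeR tested 5 members and called 0 (Simes method, adjusted p under 0.1), beside 1.77% of all 2145 genes tested, and 0 of the 5 had an unadjusted p under 0.05. Counted with the 2 ASSs, the test of Ckm gave a Simes adjusted p of 0.0345, while the F test over the gene gave an adjusted p of 0.194. This grouping was chosen after seeing the data, and it places the called ASS in Ckm by construction.

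Among the other members, the ASS with the smallest p was an intronic one of Ampd1 (chromosome 3, 103098645 to 103098660), also its site with most reads. It had 13 and 4 reads in KO against 11 and 40 in WT, so that WT replicate 2 held most of them. Its log2 fold change was -2.34 (SE 1.25), with adjusted p-values of 0.576 by DESeq2 and 0.373 by edgeR. The Ampd1 ASS nearest to the gene start (103074004 to 103074016), 110 bp inside, had 0 and 2 reads in KO against 2 and 9 in WT and was not tested.

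The main ASS of Ckmt2 (chromosome 13, 91871689 to 91871701) lay in an intron, 5227 bp from the gene start, and no other ASS was nearer. It had 124 and 0 reads in KO against 16 and 2 in WT, so that 1 library of each group held nearly all of its reads, and the DESeq2 adjusted p was 1.00. Summed over its exonic ASSs alone, with size factors estimated anew on exonic sites, Ckmt2 had a log2 fold change of 0.34.

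Adssl1 was the member whose reads gathered at its annotated start. Its main ASS (chromosome 12, 112620040 to 112620101), shown above, was 22 bp after the start at 112620047 and had 43 and 59 reads in KO against 40 and 63 in WT. Normalized, these were 28.2 and 50.9 in KO against 54.3 and 72.8 in WT. Both KO libraries lay below both WT libraries, with a log2 fold change of -0.69 (SE 0.83), a 95% interval of -2.32 to 0.94 and a DESeq2 adjusted p of 1.00. The ASS held 58.9% and 59.6% of the Adssl1 reads in KO against 75.5% and 65.6% in WT. One ASS given to Adssl1 as intronic lay on the opposite strand (112627833 to 112627843), with 4 and 7 reads in KO against 1 and 0 in WT, and it was counted in the gene sum.

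In Ak1 the ASS at the alternative start shown above (chromosome 2, 32625481 to 32625483) had 2 and 12 reads in KO against 0 and 1 in WT and was not tested. The tested Ak1 site with the smallest p (32634489 to 32634544) had 28 and 15 reads in KO against 9 and 7 in WT, giving a log2 fold change of 0.63 (SE 1.33) and a DESeq2 adjusted p of 1.00. It was the 1 tested member site with both KO libraries above both WT libraries. The span of Ak3 also held, on its strand, an ASS given to the pseudogene Gm10136, with 604 and 270 reads in KO against 235 and 209 in WT, against the 20 reads of Ak3 itself. Counted with it, Ak3 had normalized counts of 379 and 239 in KO against 330 and 260 in WT, and its log2 fold change was 0.069 (SE 0.48), at a DESeq2 adjusted p of 0.992.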

How the data were processed

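WTSS-seq libraries of total RNA were made by the authors with ribosomal RNA depletion, template switching and 20 PCR cycles, and sequenced on an Ion PGM. The authors deposited raw read counts per ASS and library, with gene, strand and Cuffcompare class code. The labels name the build GRCm38.p5. Read mapping (TMAP) and clustering were described for sister 3′-end libraries only, and strand specificity likewise. No molecular identifiers were described, so floors cover counting error only. A floor of 3 reads was 1.03 to 2.31 ppm of a library.

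Counts per site, and summed per symbol, were fitted over the whole table with DESeq2 1.42.0 (R 4.3.3; Wald test, default filtering, adjusted p under 0.1, as in the study), which left no adjusted p below a mean normalized count of 16.5 for genes and 8.76 for sites. The edgeR 4.0.16 quasi-likelihood test (TMM, filterByExpr) and diffSpliceDGE were run beside it. These fits were tested on simulated data with a fixed spread and with changes larger than the estimates of the tested members. How often smaller changes would be found was not tested. Intervals are the log2 fold change ± 1.96 SE. P-values set the difference between groups against a spread between these libraries that was estimated with information shared across genes. Levels per kb of coding length were planned and not computed, because no coding lengths were used here, and no protein sequences were used.

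All 9 members were named. Of their sites, the text names the one with most reads, the one nearest the gene start and the tested one with the smallest p, and any called. Of the other creatine and adenylate genes, it names the 3 with most reads and any called. Likeness used log2(normalized count + 0.5). The result of 1 further marker list is not reported here. The members and lists were chosen with earlier results of these data known. RefSeq tables of GRCm38.p6, whose primary chromosomes share the coordinates of the build named in the labels, gave gene spans and promoters.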

Additional observations from a re-analysis of the deposited data

How the results depend on the processing

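Calls stayed at 0 among member genes and member sites with edgeR, other size factors, other filters, an adjusted p under 0.05 and each library left out (0 to 0 calls), and among member genes also with exonic or intronic sites alone. Usage calls of members stayed at 0 with the F test, an adjusted p under 0.05, primary chromosomes alone and each library left out (0 to 0). Counting same-strand ASSs of other symbols with the member, chosen after seeing the data, gave 1 called site and 1 member with changed usage, both at Ckm, and turned Ckm to 0.21; it also moved Ak3 to 0.069. Of 103 values of the members' log2 fold changes under alternatives, 15 had the other sign and none was called. Exonic sites alone gave 0.096 for Ckm and 0.22 for Ak1, and intronic sites alone gave 0.88 for Ckm and 1.04 for Adssl1. Size factors were estimated anew on each of these subsets, so that the values differ from the main fit in scale as well as in sites. Library totals as size factors gave -0.014 for Slc6a8. Leaving out each library gave -0.39 to 0.14 for Ckm, -0.50 to 0.54 for Ak1, -0.14 to 1.17 for Ckmt2, -1.27 to -0.16 for Ampd1, -1.11 to -0.16 for Adssl1 and -4.62 to 3.73 for Slc6a8. There the lone library of a group is assumed to vary like the other group. The cause of these turns was not tested. ASSs of at least 30 reads alone raised the class e share in KO from 82.4% to 87.7%. This cut kept 8 of the 9 class e sites, against 6 of 21 in class c and 4 of 17 in class i.

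For replicates of KO and WT with the same number, the correlation of deviations was 0.072 over 5821 genes. Whether such replicates shared a processing step was not tested. A replicate block gave 0 called members, member sites and members with changed usage, and log2 fold changes of 0.018 for Ak1 and -0.43 for Slc6a8. Under the block, the adjusted p of the A930016O22Rik site was 0.108 by edgeR and 8.98e-08 by DESeq2. Among all genes, DESeq2 called 125 and edgeR 54, and among all sites 357 and 80. Over all alternatives of the fit, 54 to 156 genes and 1 to 383 sites were called, and usage calls over all genes went from 38 to between 5 and 26 with the block, primary chromosomes alone or a library left out. Depth of 11 to 365 reads per member other than Ckm limits what could be seen.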
